A study of Mus musculus with 2 samples.

Results

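The genes described here are Hcn2, Hcn3 and Hcn4, which encode 3 of the hyperpolarization-activated cyclic nucleotide-gated (HCN) channels, and Pex5l, which encodes their accessory protein, also called TRIP8b. They were chosen by symbol, and comprise 4 of 55536 annotated genes and 19 of 141862 annotated transcripts. Of these transcripts, 2 belong to Hcn2, 4 to Hcn3, 1 to Hcn4 and 12 to Pex5l. The remaining HCN gene was not analysed here. Polyadenylated RNA from the hippocampus of adult mice, strain B6NCrl (C57BL/6), aged 6 months, was sequenced in 1 group of 2 libraries made from 20 ng of RNA each, labelled biological replicates 1 and 2. The tissue samples carry separate identifiers but 1 shared donor identifier, so the spread between the libraries may not be a spread between animals. The libraries also differed widely in choroid plexus markers, as given below. There is no second condition, and a difference between the libraries is a difference between these samples only.

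HCN channels are cation channels that open when the membrane becomes more negative, and cyclic AMP bound to their intracellular end makes opening easier. They carry the current Ih, which in hippocampal pyramidal neurons contributes to the resting potential and shortens synaptic potentials as they travel along dendrites. The Pex5l protein binds the carboxyl-terminal end of the channels, opposes the effect of cyclic AMP, and through splice forms with different amino-terminal ends raises or lowers the number of channels at the cell surface.

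The coding sequences below carry the points that follow, first alternative coding starts of Pex5l and then the channel tails that its product binds. All are from the GENCODE M21 transcripts on mm10, written 5′ to 3′. In Pex5l-206 (chr3:33015068-33142869, minus strand, spliced), capitals mark the 21 coding bases of the upstream first exon. In Pex5l-209 (chr3:33015068-33082068, minus strand, spliced), capitals mark an exon of 105 bases that some transcripts skip. In Pex5l-205 (chr3:33015062-33080479, minus strand, spliced), capitals mark the bases of the next exon, of 112 bases, joined directly when that exon is skipped.
Pex5l-206 coding start: ATGTACCAGGGACACATGCAGctggtgaat
Pex5l-209 coding start: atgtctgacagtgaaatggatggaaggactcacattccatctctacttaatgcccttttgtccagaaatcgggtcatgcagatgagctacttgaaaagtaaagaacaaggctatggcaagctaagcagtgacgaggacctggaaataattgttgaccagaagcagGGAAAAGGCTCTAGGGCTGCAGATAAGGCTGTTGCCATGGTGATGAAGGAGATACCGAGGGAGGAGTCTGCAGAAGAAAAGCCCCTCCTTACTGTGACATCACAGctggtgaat
Pex5l-205 junction: gttgaccagaagcagCTGGTGAATGAGCAA

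The channel tails are the last 30 coding bases of Hcn2-202 (chr10:79735508-79735537, plus strand), Hcn3-201 (chr3:89147602-89147631, minus strand) and Hcn4-201 (chr9:58860731-58860760, plus strand), with the last 9 before the stop codon in capitals.
Hcn2-202 coding end: tctgcgcgctcgcgcctctctTCCAACTTG
Hcn3-201 coding end: cccagaggtccccaaatttctGCCAACATG
Hcn4-201 coding end: ccagtacgctccaaactgccgTCTAATTTA
Between Hcn2 and Hcn4, 6 of the last 9 bases were identical, and all 3 differences fell on the last base of a codon. Hcn3 differed from Hcn2 at 2 of these bases, both the first base of a codon. Over the last 30 bases, 16 were identical between Hcn2 and Hcn4, 15 between Hcn3 and Hcn2, and 14 between Hcn3 and Hcn4.

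The expected counts of the first program summed to 38921671 in replicate 1 and 39499357 in replicate 2. Markers of the labelled tissue were present, with all 3 CA1, all 3 CA3 and all 3 dentate granule markers at 1 TPM (a level scaled for transcript length and library size) or more in both libraries. Replicate 1 stood apart in choroid plexus markers: Ttr, Kcnj13, Folr1 and Kl summed to 15241 TPM in replicate 1, against 128.8 TPM in replicate 2. A description in the labels calls the mice male, while the field for sex says that it was not collected, and 4 Y-linked genes (Ddx3y, Eif2s3y, Uty and Kdm5d) together held 1 read in replicate 1 and 0 in replicate 2, while Xist, which is transcribed from the inactive X chromosome, held 694 reads in replicate 1 and 611 in replicate 2. Both libraries thus went against that description.

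Pex5l was by far the most abundant of the 4 genes, followed by Hcn2, Hcn3 and Hcn4. Pex5l (ENSMUSG00000027674.16, chromosome 3, 32949408 to 33143247, minus strand) stood at 28.91 TPM in replicate 1 and 31.73 TPM in replicate 2, a mean of 30.3 ± 1.99 TPM (SD, n = 2). Its level was 11.03 times that of Hcn2 in replicate 1 and 9.09 times in replicate 2. Against the summed level of the 3 channel genes it was 6.77 and 5.99 times as high. Non-coding transcripts made up 25.2% of Pex5l TPM in replicate 1 and 25.7% in replicate 2, so these are not ratios of coding RNA alone. Among 14611 protein-coding genes with at least 10 expected reads in both libraries, 74.3% had a lower mean TPM than Pex5l.

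Hcn2 (ENSMUSG00000020331.9, chromosome 10, 79716634 to 79736108, plus strand), which encodes the HCN channel most widely found across the brain, had 2.62 TPM in replicate 1 and 3.49 TPM in replicate 2, or 3.06 ± 0.615 TPM (SD, n = 2). These levels rested on 243 and 331 expected reads. Hcn3 (ENSMUSG00000028051.10, chromosome 3, 89146074 to 89160196, minus strand), a channel with little response to cyclic AMP, had 1.52 TPM in replicate 1 and 1.64 TPM in replicate 2, or 1.58 ± 0.0849 TPM, from 178 and 180 reads. Hcn4 (ENSMUSG00000032338.9, chromosome 9, 58823412 to 58863175, plus strand), the slow channel best known from the pacemaker of the heart and also found in thalamic neurons, had 0.13 TPM in replicate 1 and 0.17 TPM in replicate 2, from 24 and 32 reads. The channel genes lay low among expressed coding genes, with 27.4% of the 14611 below Hcn2, 17.8% below Hcn3 and 0.589% below Hcn4. The median level of these genes was 9.33 TPM.

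The order of the 4 genes was the same in both libraries and in both programs. Taken without their intervals, the levels of neighbours in it did not overlap between libraries. Hcn2 was 1.72 times as high as Hcn3 in replicate 1 and 2.13 times in replicate 2. The first program also deposited an interval for each level, whose coverage is not given in the sources used here. The intervals of Hcn2 and Hcn3 overlapped in replicate 1, with 2.23 to 2.87 TPM for Hcn2 and 1.43 to 2.34 TPM for Hcn3. They were apart in replicate 2, with 3.04 to 3.77 TPM for Hcn2 and 1.44 to 2.33 TPM for Hcn3. Hcn3 was 11.7 times as high as Hcn4 in replicate 1 and 9.65 times in replicate 2. In a bulk sample, fewer cells that express a gene and less of its RNA per cell cannot be told apart.

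**Figure D1:**
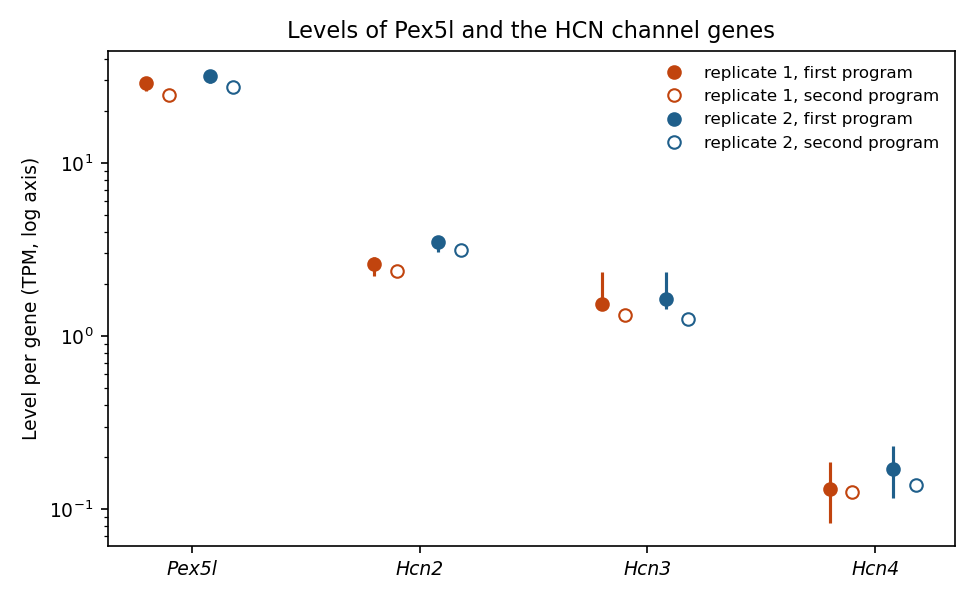
Level of each gene in TPM on a log axis, for replicate 1 and replicate 2, with filled points and vertical intervals from the first program and open points from the second. Pex5l lies near 30.3 TPM, above Hcn2 near 3.06, Hcn3 near 1.58 and Hcn4 near 0.15, in the same order in every column.

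Within the 3 channel genes, Hcn2 made up 63.6% ± 3.18 (SD, n = 2) of the summed TPM, Hcn3 33.3% ± 3.29 and Hcn4 3.13% ± 0.115. The share of Hcn2 was 61.4% in replicate 1 and 65.8% in replicate 2, and that of Hcn3 was 35.6% and 30.9%. These shares leave out the HCN gene not analysed here.

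The second program gave lower levels for all 4 genes. Pex5l had 24.5 TPM in replicate 1 and 27.4 TPM in replicate 2, Hcn2 had 2.36 and 3.15 TPM, Hcn3 had 1.33 and 1.25 TPM, and Hcn4 had 0.125 and 0.139 TPM. The transcripts of any pair of channel genes had at most 3 stretches of 31 bases in common, and had none in common with Pex5l. Guanine and cytosine made up 65.4% of Hcn2-202, more than in the longest coding transcript of 99.5% of 21877 coding genes, against 58.1% in Hcn3, 58.0% in Hcn4, 47.2% in Pex5l and a median of 49.1%. Whether base composition affected the level of Hcn2 was not tested.

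Hcn2 and Pex5l held fewer reads in replicate 1 than in replicate 2, by margins beyond counting error but under 2-fold. A gene was called different between the libraries where an exact binomial test gave an adjusted p under 0.05 and the log2 ratio was 1 or more in size. That rule called 2.41% of 14080 genes tested, and 0.433% as lower in replicate 1. None of the 3 members tested was called, and Hcn4 had too few reads to be tested. At any size of difference, an adjusted p under 0.05 was reached by 46.8% of genes, and by 23.4% with the lower value in replicate 1, so passing it is common. Hcn2 and Pex5l did so.

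Scaled to library size (CPM), Hcn2 had 6.21 in replicate 1 and 8.42 in replicate 2, a log2 ratio of -0.44 (95% exact interval from -0.68 to -0.20, counting error only), with an adjusted p of 0.00117 in the exact binomial test. Pex5l had 41.4 CPM in replicate 1 and 53.6 CPM in replicate 2, a log2 ratio of -0.37 (interval from -0.47 to -0.28), with an adjusted p of 5.2e-14 in the same exact test. With a spread of 16.65% between the libraries in place of counting error only, neither Hcn2 nor Pex5l passed edgeR's exact test. That spread was estimated from these same 2 libraries, so it includes the differences under test and could not judge them independently. Hcn3 had 4.55 CPM in replicate 1 and 4.58 CPM in replicate 2, a log2 ratio of -0.01 (interval from -0.32 to 0.30), and the sign turned with the scaling and the program. Hcn4 had 0.614 CPM in replicate 1 and 0.814 CPM in replicate 2, and its log2 ratio of -0.40 had an interval from -1.23 to 0.40, so a difference was not detectable at this depth. Of all genes tested, 4.82% had a lower ratio than Hcn2 and 6.93% a lower ratio than Pex5l, around a median of -0.01.

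Some marker lists were also lower in replicate 1. The excitatory neuron markers Camk2a, Neurod6 and Slc17a7 had log2 ratios of -0.24, -0.20 and -0.40, and together they reached 1538 TPM in replicate 1, against 1836 TPM in replicate 2. The oligodendrocyte genes Mbp and Cnp, at -0.20 and -0.22, had ratios of similar size, while Mog and Mag, at 0.17 and 0.21, were higher in replicate 1. The 3 CA3 markers summed to 183 TPM in replicate 1 and 196 TPM in replicate 2, and the 3 dentate granule markers to 111 TPM in replicate 1 and 113 TPM in replicate 2. The 3 CA1 markers summed to 182 TPM in replicate 1 and 229 TPM in replicate 2, while the 4 interneuron markers summed to 331 TPM in replicate 1 and 324 TPM in replicate 2. The 6 thalamic markers, of interest because thalamic neurons also use HCN channels, summed to 151 TPM in replicate 1 and 117 TPM in replicate 2. Most of that sum was Tcf7l2, at 95.9 TPM in replicate 1 and 58.6 TPM in replicate 2. Ntng1 was lower in replicate 1, and the median log2 ratio of the 6 was -0.05. None of these lists was at 0, and their part in the difference of Hcn2 and Pex5l was not tested.

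**Figure D2:**
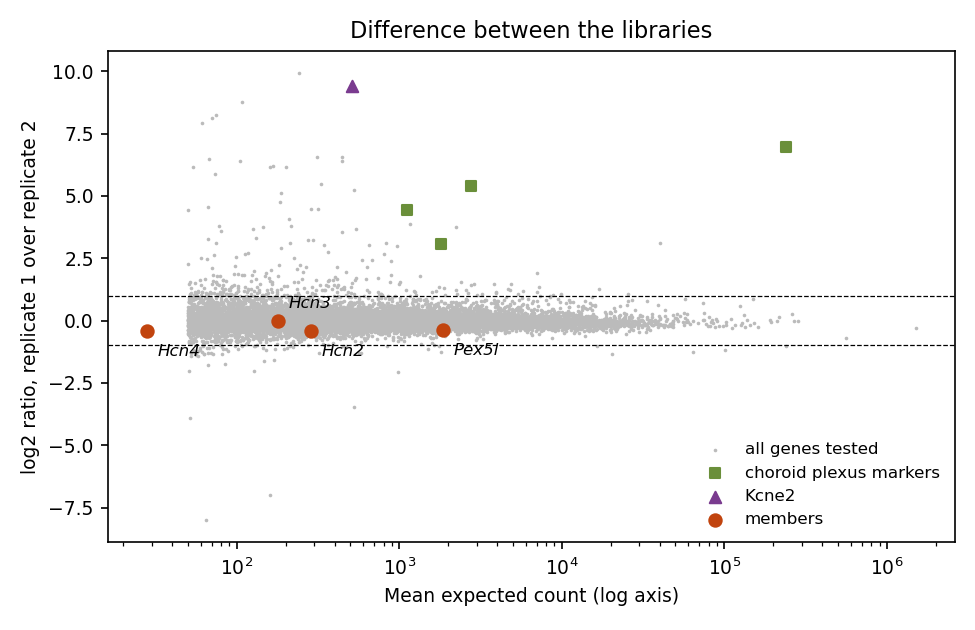
The log2 ratio of expected counts, replicate 1 over replicate 2, against the mean expected count on a log axis, with 1 grey point for each of 14080 genes tested and dashed lines at a log2 ratio of 1 and -1. The 4 members lie between the lines, from -0.44 for Hcn2 to -0.01 for Hcn3, while Kcne2 and the choroid plexus markers lie far above.

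The 3 channel genes each had 1 main coding transcript. Hcn2-202, with 863 codons, held all 243 and 331 reads of Hcn2, and Hcn2-201, which has the same number of codons, was listed at 0 in the first program. Hcn4-201, with 1201 codons, is the only annotated transcript of Hcn4. Hcn3-201, with 779 codons, took all of the TPM of Hcn3 in replicate 1 and 90.3% in replicate 2. The rest in replicate 2 was 1.91 reads given to the short retained-intron transcript Hcn3-202. The second program instead gave 9.04% in replicate 1 and 13.4% in replicate 2 to another retained-intron transcript, Hcn3-203. The last 711 bases of Hcn3 lie across from the end of Pklr, the pyruvate kinase gene of liver and red cells, on the other strand and outside the Hcn3 coding sequence. Pklr held 0 expected reads in replicate 1 and 4.02 in replicate 2.

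Pex5l was spread over many transcripts with 3 kinds of start. The start used by Pex5l-206, and by the non-coding Pex5l-202, Pex5l-207 and Pex5l-212, lies at the upstream end of the gene. Another 7 coding transcripts start 60187 to 61179 bases further along and encode 591, 615 or 650 codons. Pex5l-203 starts at position 32985079, within the gene, and encodes 344 codons, the carboxyl-terminal portion without the variable amino-terminal end. Pex5l-206 encodes 567 codons and joins the 21 coding bases of the upstream exon straight to the exon of 112 bases. No coding transcript in the annotation joins the upstream exon to the exon of 105 bases, although the non-coding Pex5l-202 holds both.

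**Figure D3:**
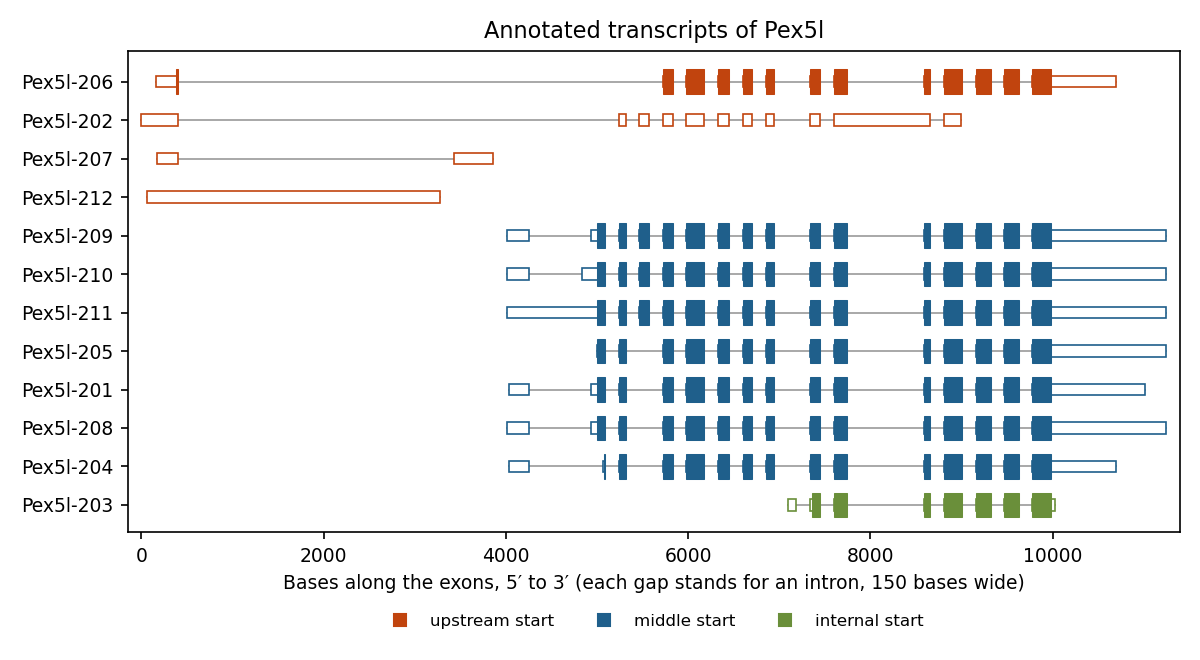
Annotated exons of the 12 Pex5l transcripts from 5′ to 3′, with exon widths to scale, each intron shortened to 150 bases, coding parts as tall filled boxes and colours for the 3 kinds of start. The coding transcripts share their last 7 coding exons, in whole or in part, and differ at the amino-terminal end.

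The upstream-start coding form was low in replicate 1 and the internal-start form was high there, in both programs. Pex5l-206 had 2.81 TPM in replicate 1 and 8.30 TPM in replicate 2 (deposited intervals 1.91 to 3.63 and 6.52 to 9.22 TPM), from 212 and 642 expected reads. Its level in replicate 1 was 0.339 times that in replicate 2, and 0.317 times in the second program (1.75 and 5.50 TPM). Pex5l-202, which starts at the same exon, had 1.22 TPM in replicate 1 and 2.65 TPM in replicate 2, and 1.18 and 3.02 TPM in the second program.

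Pex5l-203 had 9.01 TPM in replicate 1 and 4.89 TPM in replicate 2 in the first program, a ratio of 1.84, with deposited intervals of 6.63 to 10.5 and 2.98 to 6.77 TPM that just overlap. The second program gave it 7.67 TPM in replicate 1 and 4.63 TPM in replicate 2, a ratio of 1.66. Of the 10 member transcripts with a mean of at least 50 reads in both programs, Pex5l-202 and Pex5l-206 passed a ratio of 2 in both programs, both lower in replicate 1. Over 25422 transcripts, 4.88% passed that ratio the same way in both programs, and 1.92% did so with the lower value in replicate 1. In the first program by itself, 8.09% passed it either way. The transcripts of a gene divide the same reads and are not independent of each other.

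The other Pex5l transcripts differed less between the libraries in the first program. The non-coding Pex5l-207 had 5.98 TPM in replicate 1 and 5.40 TPM in replicate 2, and Pex5l-209, with 650 codons, had 3.23 and 4.31 TPM. Pex5l-205, with 615 codons, had 4.67 TPM in replicate 1 and 3.60 TPM in replicate 2, but 3.28 and 1.77 TPM in the second program. Pex5l-204, with 591 codons, had 1.24 and 1.88 TPM, and Pex5l-211, with 650, had 0.66 and 0.60 TPM. Pex5l-212 had 0.09 and 0.11 TPM. Pex5l-201, Pex5l-208 and Pex5l-210 were listed at 0 in both libraries by the first program, whereas the second gave Pex5l-201 0.207 TPM in replicate 1 and 1.00 TPM in replicate 2.

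**Figure D4:**
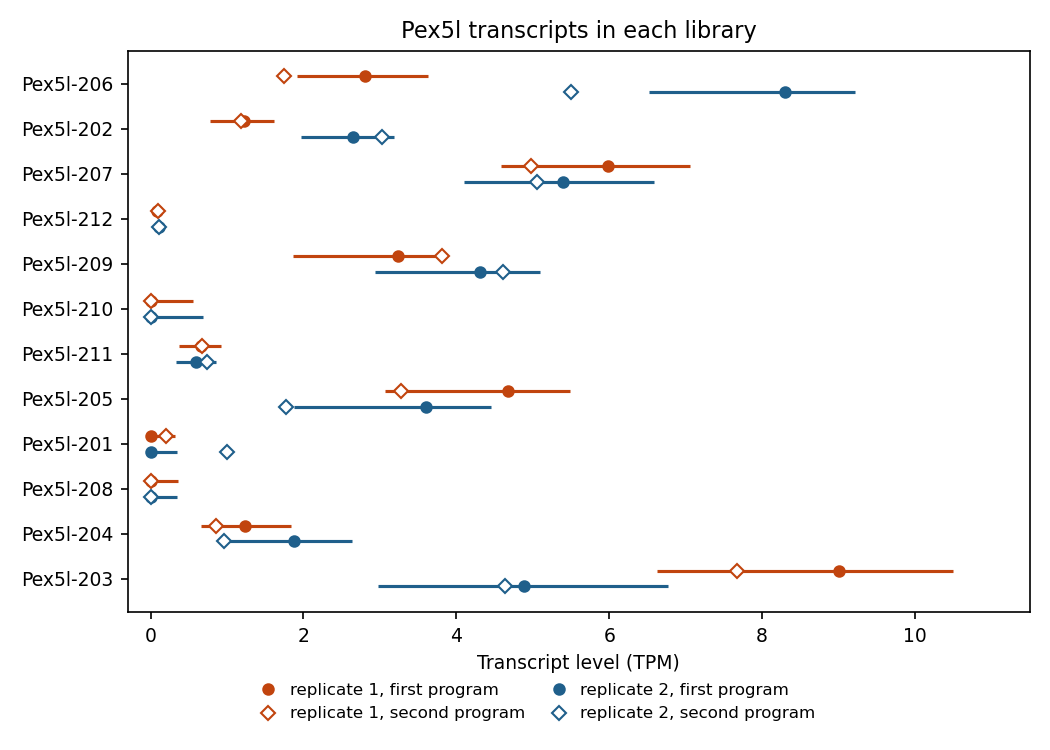
TPM of each Pex5l transcript, with replicate 1 above replicate 2, filled points and intervals from the first program and open diamonds from the second. Pex5l-206 is lower in replicate 1, at 2.81 against 8.30 TPM, and Pex5l-203 is higher there, at 9.01 against 4.89 TPM.

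Summed by start, the 7 middle-start transcripts kept a similar share of the TPM. They took 33.9% of Pex5l TPM in replicate 1 and 32.7% in replicate 2, or 36.04% and 33.1% in the second program. The 4 upstream-start transcripts took 34.9% in replicate 1 and 51.9% in replicate 2, or 32.65% and 49.95% in the second program. The internal-start transcript took 31.2% in replicate 1 and 15.4% in replicate 2, or 31.3% and 16.9%. Among the middle-start transcripts, those with the exon of 105 bases had 3.89 TPM in replicate 1 and 4.91 TPM in replicate 2 and those without it had 5.91 and 5.48 TPM, whereas in the second program those with it had 4.49 and 5.35 TPM and those without it 4.34 and 3.72 TPM. Which of these was higher thus depended on the program. By counts, the middle-start transcripts held the most, with 57.6% of the Pex5l reads in replicate 1 and 47.9% in replicate 2, and Pex5l-203, which is only 1187 bases long, held 17.6% and 7.53%.

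By TPM, the leading transcript of Pex5l was Pex5l-203 in replicate 1 and Pex5l-206 in replicate 2, in both programs. By reads, Pex5l-205 led in replicate 1 and Pex5l-206 in replicate 2 in the first program, with 421 and 642 reads, while in the second program Pex5l-209 led in both libraries, with 639 and 811 reads. A change of leading transcript by TPM between the libraries in both programs was seen in 269, or 3.17%, of 8477 genes that had several annotated transcripts and reached 5 TPM in each library. The mean transcript length of Pex5l, weighted by TPM, was 1989 bases in replicate 1 and 2280 bases in replicate 2. The log2 ratio of Pex5l was accordingly -0.13 by TPM, against -0.37 by reads. Of the 1157 stretches of 31 bases in Pex5l-203, 88 were found in no other Pex5l transcript. Pex5l-206 had 26 of 2602 to itself, Pex5l-204 29 of 2691 and Pex5l-202 960 of 2534. Pex5l-201, Pex5l-205, Pex5l-208 and Pex5l-209 had none of their own, so the split among those 4 rests on the programs' models. Most of the sequence of Pex5l-206, Pex5l-204 and Pex5l-203 is also shared, so their levels and differences rest in large part on those models too.

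Antisense genes overlap Pex5l on the other strand, and whether counting used strand is not stated. Gm37459 shares 340 bases with Pex5l coding exons, and none with the first exon of Pex5l-203. All 340 lie downstream of that exon, among the exons that hold the whole coding sequence of Pex5l-203. The longer coding forms share these exons. Whether reads of Gm37459 affected the level of Pex5l-203 was not tested. The first program gave Gm37459 15.3 reads in replicate 1 and 19.6 in replicate 2, and the second 150 and 177. If counting did not use strand, reads of these genes could not be told from those of Pex5l where they overlap. The antisense gene 4930419G24Rik shares 24 bases and held 1 read in replicate 1 and 0 in replicate 2.

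Of 17 genes listed as partners or modulators of HCN channels, 13 had at least 1 TPM in both libraries, with a median of 10.7 TPM. Vapa, a membrane protein of the endoplasmic reticulum that tethers it to other organelles, was highest at 119 TPM (replicate 1) and 126 TPM (replicate 2). The neuronal adaptor Apba2 followed at 110 TPM (replicate 1) and 121 TPM (replicate 2), then the ubiquitin ligase Nedd4l with 35.9 and 46.5 TPM. By the mean of both libraries Mrvi1 was lowest, at 0.32 TPM (replicate 1) and 0.21 TPM (replicate 2), while Kcne2 was lower still in replicate 2. Kctd3, whose product binds the Hcn3 protein, had 17.3 TPM in replicate 1 and 16.99 TPM in replicate 2, more than Hcn3 itself. Of the 14 partner genes tested, 1 was called higher in replicate 1 and 0 lower, against 2.41% of all genes called, and the median log2 ratio was 0.00, against -0.01 over all genes tested. At an adjusted p under 0.05 of any size in the exact binomial test, 4 were higher and 3 lower, against 46.8% of all genes.

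The partner gene called between the libraries was Kcne2, which encodes a small accessory subunit of potassium channels that can also join HCN channels. It held 1019 reads in replicate 1 and 1 read in replicate 2, or 21.7 and 0.02 TPM, a ratio of 1024 (95% exact interval from 183 to 40500, counting error only). The second program gave it 17.5 TPM in replicate 1 and 0.0256 TPM in replicate 2. Kcne2 is also a gene of the choroid plexus epithelium, and all 4 choroid plexus markers were called higher in replicate 1, with log2 ratios from 3.07 for Kl to 6.97 for Ttr. The part of choroid plexus tissue in the level of Kcne2 was not tested. No member was called between the libraries.

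**Figure D5:**
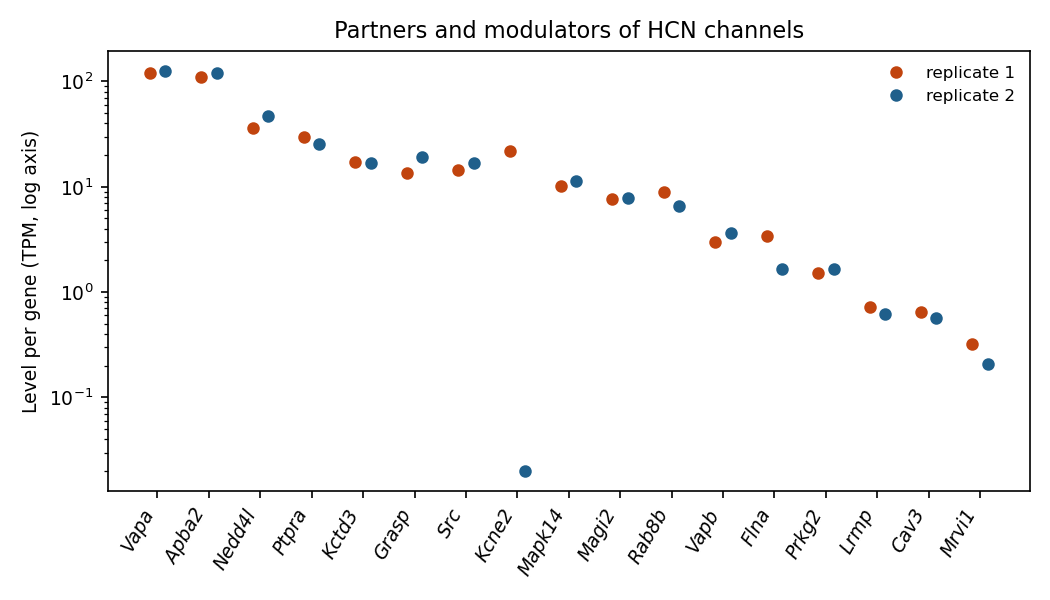
Level in TPM on a log axis of the 17 genes listed as partners and modulators of HCN channels, with replicate 1 left of replicate 2. Most pairs lie close together, while Kcne2 has 21.7 TPM in replicate 1 and 0.02 TPM in replicate 2.

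The closest relatives of HCN channels by structure, the cyclic nucleotide-gated channels of sensory cells, were very low. None of 6 such genes reached 1 TPM in both libraries, and they summed to 0.37 TPM in each library. By the mean of both libraries the highest were Cnga4, at 0.11 TPM (replicate 1) and 0.19 TPM (replicate 2), Cnga3, at 0.11 and 0.10 TPM, and Cngb1, at 0.13 and 0.07 TPM. In replicate 1 Cngb1 was above the others, and these levels rest on 7 to 16 reads a library. Cnga1 and Cngb3 had 0 expected reads in both libraries, where 3 reads is the limit that a count of 0 allows. Hcn4, the lowest channel described above, lay in the range of these genes.

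The peroxisomal import genes, the family from which Pex5l takes its name, were all present, with 7 of 7 at 1 TPM or more in both libraries and a median of 19.9 TPM. Pex5, the related receptor that carries proteins into peroxisomes, had 12.9 TPM in replicate 1 and 14.6 TPM in replicate 2, below Pex5l. Pex14, which docks that receptor at the membrane, was highest of the list by mean level at 41.5 TPM (replicate 1) and 41.7 TPM (replicate 2), followed by Pex2 with 32.2 and 28.4 TPM and Pex7 with 19.5 and 22.4 TPM. Of 7 tested, 0 were called between the libraries, against 2.41% of all genes, with 1 higher and 2 lower in replicate 1 at an adjusted p under 0.05 of any size in the exact binomial test, against 46.8% of all genes. The median log2 ratio was -0.03.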

How the data were processed

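The authors used the mm10 assembly and the M21 annotation, per the text file deposited with the tables. No source used here names the programs, and their columns are laid out like those of RSEM for the first and kallisto for the second. The authors deposited expected counts (estimated reads, which need not be whole) and TPM, and for the first program bounds of an interval of TPM. Members and lists were chosen with earlier results of these data known. All 55536 gene rows matched the annotation. The 26345 rows that name no mouse gene held 2.31e-05% of reads in replicate 1 and 1.64e-05% in replicate 2 and were left out. Counts were rounded and scaled by TMM in edgeR 4.0.16 (R 4.3.3). Transcript values of the second program were added up by gene. Libraries were compared by a two-sided exact binomial test over genes whose mean count was 50 or more, with p-values adjusted by Benjamini-Hochberg and a prior count of 0.5 in ratios. This covers counting error only, as do the intervals. The common spread came from edgeR over 16640 genes, with these same 2 libraries taken as 1 group. Text names all members and, of each list, the 3 highest and the lowest, with further genes added for their role or after their values were seen. Some items that this rule would name are not reported here. The test was checked on simulated counts that varied by counting error only, so the check does not cover further spread between libraries. Other steps used Python 3.11.15, scipy 1.17.1 and pandas 2.3.3.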

Additional observations from a re-analysis of the deposited data

How the results depend on the processing

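No paired analysis was possible because the series holds 1 group. Of 51 values recomputed under another setting with both libraries, 8 moved and 2 were reversed. The other 41 kept their direction and moved by less than the spread or stayed on the same side of the threshold. For the ratios of tested members that threshold was the call, so a lost adjusted p under 0.05 did not count as a change. Hcn2 and Pex5l were thus kept with edgeR's exact test, although neither passed there. Some of the 41 could not have moved: the share of Hcn4-201 is fixed at 100%, as is the coding-only share of Hcn3-201. The members' log2 ratios with no minimum count also repeat the main ratios by construction. The share of Pex5l-203 went from 23.3% to 12.55% by expected counts, and counted as kept because its SD was 11.14. With 2 libraries, leaving one out moves a mean by less than the spread by construction, so those 22 values say nothing about stability. The log2 ratio of Hcn3 was reversed to 0.0051 with library totals and 0.0593 in the second program. The second program gave mean levels of 1.29 TPM for Hcn3 and 25.9 TPM for Pex5l. By expected counts, the shares of the 3 channel genes were 57.8% for Hcn2, 36.6% for Hcn3 and 5.64% for Hcn4. The 339 genes called between the libraries became 719 with a minimum mean count of 10, 839 with no minimum and 173 with edgeR's exact test at the common spread of 16.65%, where 645 had an unadjusted p under 0.05. Leaving out each library gave 2.62 and 3.49 TPM for Hcn2, 1.52 and 1.64 TPM for Hcn3, 0.13 and 0.17 TPM for Hcn4 and 28.91 and 31.73 TPM for Pex5l, and 15.4% to 31.2% for the share of Pex5l-203. With 2 libraries, outliers could not be tested. Depth limits Hcn4, with 24 and 32 reads.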
